A study of Rattus norvegicus with 12 samples.

Results

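Complement genes were measured in primary astrocyte cultures from the rat optic nerve head, with and without epidermal growth factor (EGF). The set holds 6 genes, C1r, C1s, C3, Serping1, Cd55 and Cd59, which are components or regulators of the cascade. They were chosen by name, with earlier results of these data known. Other complement genes that these arrays carry are described further below. Probe sets were matched by the platform's gene symbol, and the brightest probe set of each gene, by its mean over the 12 arrays, leads. This gave 7 of the 31099 probe sets on the array, for 6 of the 14217 genes that have a probe set with their symbol alone. Cd59 is named Cd59b on this platform, and RefSeq lists Cd59 among the synonyms of that gene. Cd55 has 2 probe sets and every other gene has 1. All 7 passed the filter on dim probe sets, which left 18625 probe sets to test.

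Arrays fell into 4 groups of 3: EGF at 4 h, its control at 4 h, EGF at 12 h and its control at 12 h. The design sets EGF cultures against sister control cultures separately at each time, and asks how the cells' transcripts differ after that exposure. Groups were read from the sample titles, because the free-text description calls every sample control. Dose, passage, age and strain are not given in the sources used here, and the labels do not say that replicates are separate cultures, so p-values reflect the spread among these arrays, which may be technical, and nothing wider. In such bulk RNA, fewer cells of a type and less RNA per cell cannot be told apart.

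Complement is a chain of blood and tissue proteins that tags surfaces for removal and can punch holes in membranes. In the classical route the protease C1r activates C1s inside the C1 complex, C1s cleaves further components, and the routes meet at C3, whose fragments coat the target. Cells hold the chain in check: C1 inhibitor, the product of Serping1, traps C1r and C1s, Cd55 (decay-accelerating factor) takes apart the convertases that cleave C3, and Cd59 blocks the final membrane attack complex. Astrocytes are a known local source of several of these proteins, and complement tagging of synapses and axons has been studied in the optic nerve head, where retinal ganglion cell axons leave the eye.

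RefSeq promoters on the rat assembly GRCr8 were available for 3 of the 6 genes. All 3 are shown, and C1s, Serping1 and Cd59b had none. Of the genes shown, Cd55 and C1r passed the test with EGF at 4 h, in opposite directions, and C3 is where the routes meet. Each line gives the 250 bases before the annotated start, 5′ to 3′ on the gene's own strand. Capitals mark matches on either strand to the C/EBP letters TTNNGNAA or to the NF-kB pattern (GGG, 5 bases of any kind, CC).
C3, chr9:2201340-2201589, minus strand: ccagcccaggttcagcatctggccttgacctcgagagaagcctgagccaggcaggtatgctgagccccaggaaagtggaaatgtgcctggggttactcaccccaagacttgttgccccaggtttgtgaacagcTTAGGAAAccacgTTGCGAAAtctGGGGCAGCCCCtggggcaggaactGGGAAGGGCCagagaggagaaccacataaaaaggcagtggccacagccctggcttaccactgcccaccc
C1r, chr4:159098763-159099012, plus strand: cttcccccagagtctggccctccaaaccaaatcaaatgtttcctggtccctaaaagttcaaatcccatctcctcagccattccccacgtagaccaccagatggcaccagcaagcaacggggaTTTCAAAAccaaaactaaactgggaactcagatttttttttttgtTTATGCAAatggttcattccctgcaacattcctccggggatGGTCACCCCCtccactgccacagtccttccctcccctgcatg
Cd55, chr13:44438102-44438351, minus strand: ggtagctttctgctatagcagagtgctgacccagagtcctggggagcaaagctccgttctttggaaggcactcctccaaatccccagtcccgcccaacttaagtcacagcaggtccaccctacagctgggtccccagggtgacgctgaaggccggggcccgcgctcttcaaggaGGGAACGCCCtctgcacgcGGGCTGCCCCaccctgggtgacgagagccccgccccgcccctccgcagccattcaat

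In the C3 promoter the C/EBP letters matched 2 times, at 117 to 110 and at 104 to 97 bases before the start. The NF-kB letters matched there 3 times, 2 of them overlapping. In C1r the C/EBP letters matched 2 times, 1 on each strand, and the NF-kB letters 1 time, on the minus strand. The Cd55 promoter held 2 NF-kB matches, at 76 to 67 and at 57 to 48 bases before the start, and no C/EBP match. Both motifs are common: over 33469 rat promoters of this length, 37.2% held the C/EBP letters and 42.3% the NF-kB letters. Rarer motifs were searched in the same way, the STAT letters TTCNNNGAA (7.67% of promoters), the interferon response pattern (GAAA, 2 bases of any kind, GAAA; 3.41%) and the AP-1 letters TGANTCA (6.34%), and none was found in these 3 windows. A match is only a run of letters, and its absence says nothing of the factor. GC content was 58.8% for C3, 49.6% for C1r and 64.4% for Cd55.

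The 2% trimmed mean was nearly equal on every array (1500.46 to 1500.56), and median signals ran from 305.5 to 415.2. Time and control probe sets together divide the arrays into 4 sets. The replicate 3 pair at 4 h stands apart by its hybridisation controls (26065.7 and 22824.9, where no other array exceeded 184.3). The 12 h arrays had actin 3′ to 5′ ratios of 11.1 to 21.7, except EGF replicate 3, with 1.24. At 4 h the ratio ran from 1.20 to 1.61. By these controls EGF replicate 3 at 12 h was like replicates 1 and 2 at 4 h. That array also correlated least with its own group (mean r = 0.905). Astrocyte markers Vim, Gja1, Glul, Ncam1, S100b, Slc1a3, Aldoc and Nes passed the filter, whereas Gfap reached at most 347.4, Slc1a2 331, Pax2 237.5, Aldh1l1 209.9 and Aqp4 108.2, all with mean signals below it, so several defining markers of astrocytes were too dim to test. EGF at 4 h raised 2118 probe sets and lowered 3068, and after centring each array on its median the split was 2477 and 2189. At 12 h the counts were 2848 and 3882, or 3436 and 3091 after centring. The median probe set moved by -0.15 at 4 h and -0.06 at 12 h on the log2 scale.

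At 4 h, EGF raised Cd55 7.51-fold and lowered Cd59b 1.61-fold and C1r 1.36-fold, and C3, C1s and Serping1 did not pass the test. At 12 h, C1r, C1s, Serping1 and Cd59b were 1.53-fold to 2.72-fold lower, C3 did not pass, and for Cd55 the leading probe set did not pass while the second was 4.20-fold higher. Folds are on the scale of log2(signal + 24.4), tested by limma with Benjamini-Hochberg adjustment over all tested probe sets at 0.05. By leading probe sets, 1 of 6 genes was higher and 2 lower at 4 h, against 11.4% of all probe sets called higher and 16.5% called lower. At 12 h, 0 were higher and 4 lower, against 15.3% and 20.8%. The EGF and control arrays did not overlap for 5 of the genes at 4 h and 4 at 12 h, in either direction, against 48.1% and 48.0% of all probe sets. The median log2 change of the 6 genes was -0.39 at 4 h and -0.70 at 12 h.

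**Figure D1:**
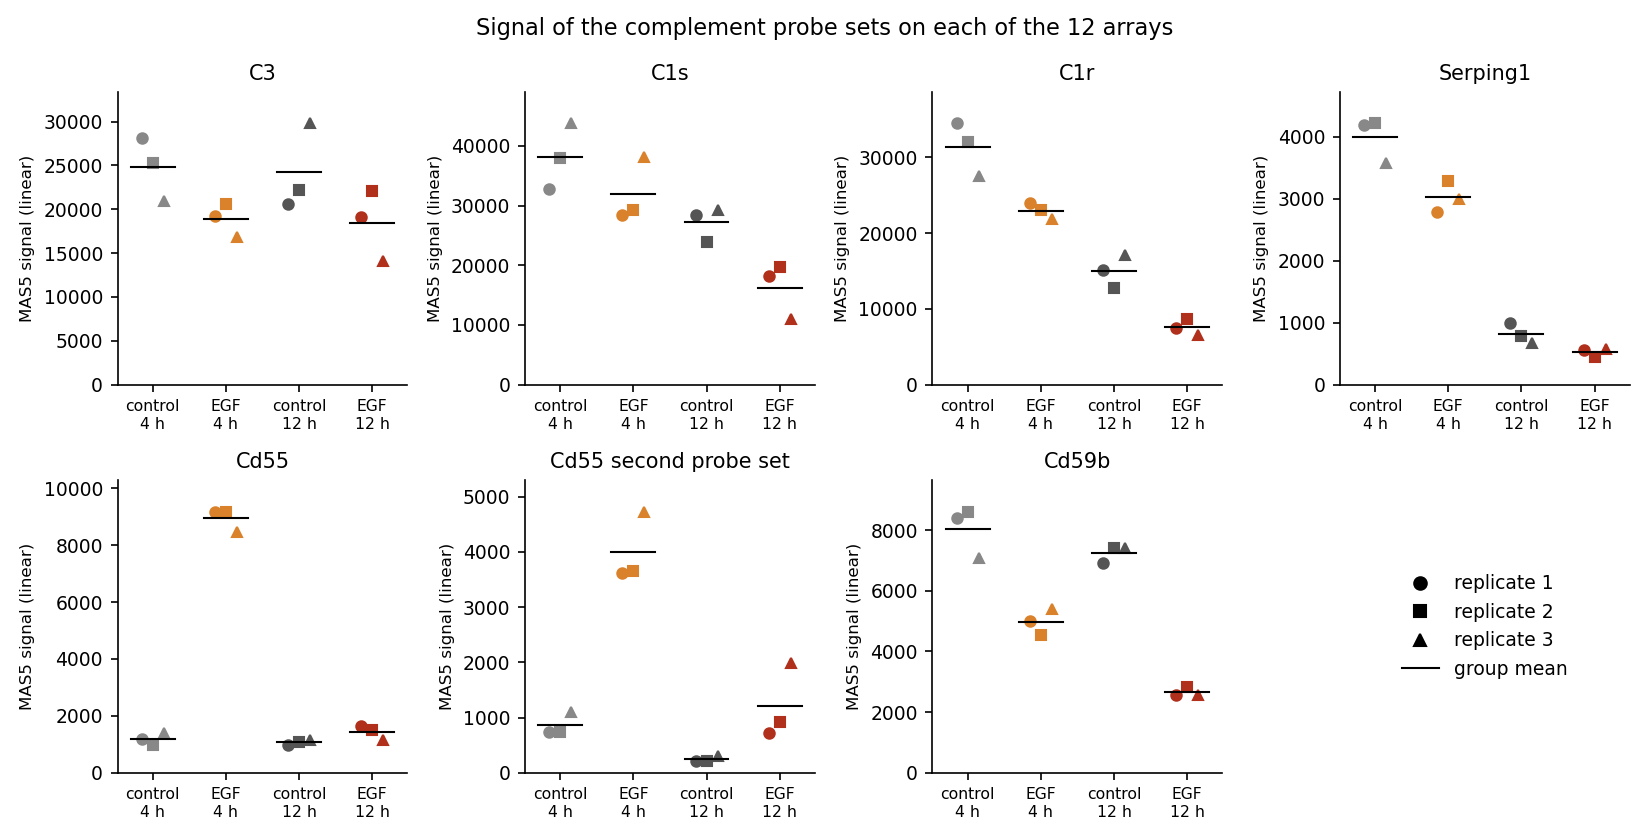
MAS5 signal (linear, vertical axis from 0) of the 7 complement probe sets on each of the 12 arrays, by group; shapes give the replicate number and lines the group mean (n = 3). The 3 EGF 4 h arrays of Cd55 lie between 8474.8 and 9176.7, above every other array, and Serping1 lies between 440.2 and 986.3 at 12 h, below all 4 h arrays.

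C1r encodes the first protease of the classical route. Its signal in the controls at 4 h was 34492.9, 32013.1 and 27603.3 in replicates 1 to 3, and with EGF it was 23918.2, 23100.5 and 21833.2. Every EGF array was below every control array. The means were 31369.8 ± 3490 and 22950.6 ± 1051 (SD, n = 3 each), a log2 change of -0.45 ± 0.14 (SE; adjusted p = 0.0326 by limma). This call was near the threshold. It was lost with the replicate number as a block (-0.45, adjusted p = 0.0583), after median centring (-0.34, adjusted p = 0.167), and when any 1 of control replicates 1 and 2 and the 3 EGF arrays at 4 h was left out (adjusted p from 0.0615 to 0.124).

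At 12 h the C1r controls read 15099.1, 12759 and 17047.4, and the EGF arrays 7460.6, 8708.2 and 6579.9. The groups were again apart, and EGF lowered C1r 1.97-fold, by -0.98 ± 0.14 (adjusted p = 0.000142). Replicates 1 and 2 alone gave -0.88 and EGF replicate 3, the array that stands apart, gave -1.17 against the same controls. The adjusted p was at most 0.00278 under all 22 alternative settings. The effect was larger at 12 h than at 4 h by -0.53 ± 0.20, which did not pass (adjusted p = 0.110).

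C1s, the protease that C1r activates, lies next to C1r on rat chromosome 4, with no gene listed between them. At 4 h its control signals were 32728.2, 38061.8 and 43791.1, and its EGF signals 28341, 29250.8 and 38208.1. The groups overlapped, because the EGF replicate 3 array was above 2 of the controls. The log2 change was -0.26 ± 0.20, with a 95% interval from -0.70 to 0.18 (adjusted p = 0.384). Within the replicate 3 pair the ratio was -0.20 on the log2 scale, and in replicates 1 and 2 it was -0.29. Blocking on the array set, the change of -0.26 passed (adjusted p = 0.0447).

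At 12 h C1s read 28414.4, 23946.4 and 29199.7 in controls and 18124.4, 19623.4 and 10964.8 with EGF. The lowest control was above the highest EGF array. C1s fell 1.72-fold, by -0.78 ± 0.20 (adjusted p = 0.00895), from 27186.8 ± 2834 to 16237.5 ± 4627 (SD, n = 3 each). EGF replicate 3 alone gave -1.30 and the other EGF arrays together -0.52, and without replicate 3 the call held. Over the 22 alternatives the adjusted p stayed at or below 0.0387. The difference between the times was -0.52 ± 0.29 and did not pass (adjusted p = 0.277).

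C3 is the protein on which the routes of activation meet. The controls at 4 h read 28137.7, 25274.7 and 20970.9, and the EGF arrays 19195.8, 20641.7 and 16800.5. The lowest control, replicate 3, was just above the highest EGF array. The log2 change of -0.39 ± 0.19 had an interval from -0.79 to 0.01 and did not pass (adjusted p = 0.143). Blocking on the array set, the same change passed (adjusted p = 0.0192), as it did when the 4 h arrays were fitted alone (0.0441).

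At 12 h the C3 controls read 20600.9, 22221.2 and 29811, and with EGF the signal was 19105.2, 22144.3 and 14059.9. The groups overlapped in that EGF replicate 2 lay above control replicate 1. The log2 change was again -0.40 ± 0.19 and did not pass (adjusted p = 0.112). It passed under quantile normalization (-0.59, adjusted p = 0.0210) and when EGF replicate 2 was left out (-0.54, adjusted p = 0.0468). EGF replicate 3 alone gave -0.76, and the other EGF arrays -0.22. The effects at the 2 times differed by -0.01 ± 0.26 (adjusted p = 0.983).

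Serping1 encodes C1 inhibitor, the fluid-phase brake on C1r and C1s. At 4 h its controls read 4190.7, 4218.3 and 3576.1 and its EGF arrays 2789.4, 3280.9 and 2993.2. The groups did not overlap. The log2 change of -0.40 ± 0.17 had an interval from -0.77 to -0.03, yet missed the threshold over all probe sets (adjusted p = 0.103, unadjusted p = 0.0368). With the array set as a block it passed (adjusted p = 0.0463), as it did with the 4 h arrays fitted alone (0.0290).

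At 12 h Serping1 read 986.3, 790.2 and 675.5 in controls and 557.9, 440.2 and 570.7 with EGF. All EGF arrays lay below the controls, and the means were 817.3 ± 157 and 522.9 ± 71.9 (SD, n = 3 each). The fall of -0.61 ± 0.17 passed (adjusted p = 0.0132). It no longer passed without control replicate 1 (-0.47, adjusted p = 0.0694), without EGF replicate 2 (-0.50, adjusted p = 0.0537), or with the 12 h arrays fitted alone (-0.61, adjusted p = 0.0796). The effects at the 2 times differed by -0.21 ± 0.24 (adjusted p = 0.622).

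Cd55 sits on the cell surface through a lipid anchor and speeds the decay of C3 convertases. The leading probe set read 1170.6, 980.7 and 1388.2 in the 4 h controls and 9174.9, 9176.7 and 8474.8 with EGF at 4 h. The lowest EGF array was above the highest control by a wide margin, and the rise was 2.91 ± 0.17 on the log2 scale, or 7.51-fold (adjusted p = 5.40e-08). It was 2.59 in the replicate 3 pair and 3.07 in replicates 1 and 2. All 23 alternatives, the second probe set among them, kept the call.

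At 12 h the leading Cd55 probe set read 978.9, 1093.2 and 1163.9 in controls and 1645.4, 1502 and 1161.6 with EGF. Replicates 1 and 2 with EGF were above all controls, whereas replicate 3 was within them. The change was 0.39 ± 0.17, with an interval from 0.03 to 0.75, and did not pass (adjusted p = 0.0826). Without EGF replicate 3 it was 0.54 and passed (adjusted p = 0.0132), and it also passed after median centring (0.49, adjusted p = 0.0435). The effect at 12 h was smaller than that at 4 h by -2.52 ± 0.24 (adjusted p = 3.41e-05).

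The second Cd55 probe set gave another course. Its name ends in _a_at, which on this platform marks a probe set that matches several transcripts of 1 gene, but which transcripts either set covers is not given in the sources used here. At 4 h it read 737.3, 738.6 and 1102.3 in controls and 3616.3, 3651.4 and 4726.9 with EGF. At 12 h it read 217.1, 213.2 and 308.2 in controls and 722.5, 913.8 and 1989.3 with EGF. The groups were apart at both times, with rises of 2.20 ± 0.31 (4.60-fold, adjusted p = 0.000176) and 2.07 ± 0.31 (4.20-fold, adjusted p = 0.000200).

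For this probe set the 2 times did not differ by more than their error (-0.13 ± 0.44, adjusted p = 0.885). The probe sets also disagreed between the controls: the second was lower at 12 h than at 4 h by -1.70 ± 0.31 (adjusted p = 0.000969), and the leading one gave -0.12 ± 0.17 (adjusted p = 0.595). At 12 h EGF replicate 3 was the highest EGF array on the second probe set and the lowest on the leading one. Against the controls it gave 2.91 on the second, where replicates 1 and 2 gave 1.65. Both probe sets were higher with EGF at 4 h, and at 12 h the size of the Cd55 change depends on which is read.

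Cd59, listed as Cd59b, encodes the anchored inhibitor of the membrane attack complex. At 4 h its controls read 8390.2, 8608.6 and 7066, and with EGF the signal was 5001.6, 4551.2 and 5382.3. At 12 h the controls read 6916.2, 7413.3 and 7398, and the EGF arrays 2566.9, 2820.3 and 2565.6. The groups were well apart at both times and the EGF arrays at 12 h lay within a narrow band.

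Cd59b fell by -0.68 ± 0.12 at 4 h (1.61-fold, adjusted p = 0.000959) and by -1.44 ± 0.12 at 12 h (2.72-fold, adjusted p = 1.05e-06). The effect at 12 h was the larger by -0.76 ± 0.17 (adjusted p = 0.0123). At 4 h the replicate 3 pair gave -0.39 and replicates 1 and 2 gave -0.83, while at 12 h EGF replicate 3 gave -1.49 and the others -1.42. All 22 alternatives kept the calls at both times, with an adjusted p of at most 0.00753 at 4 h. Thus the membrane regulators went opposite ways at 4 h: Cd55 rose and Cd59b fell.

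**Figure D2:**
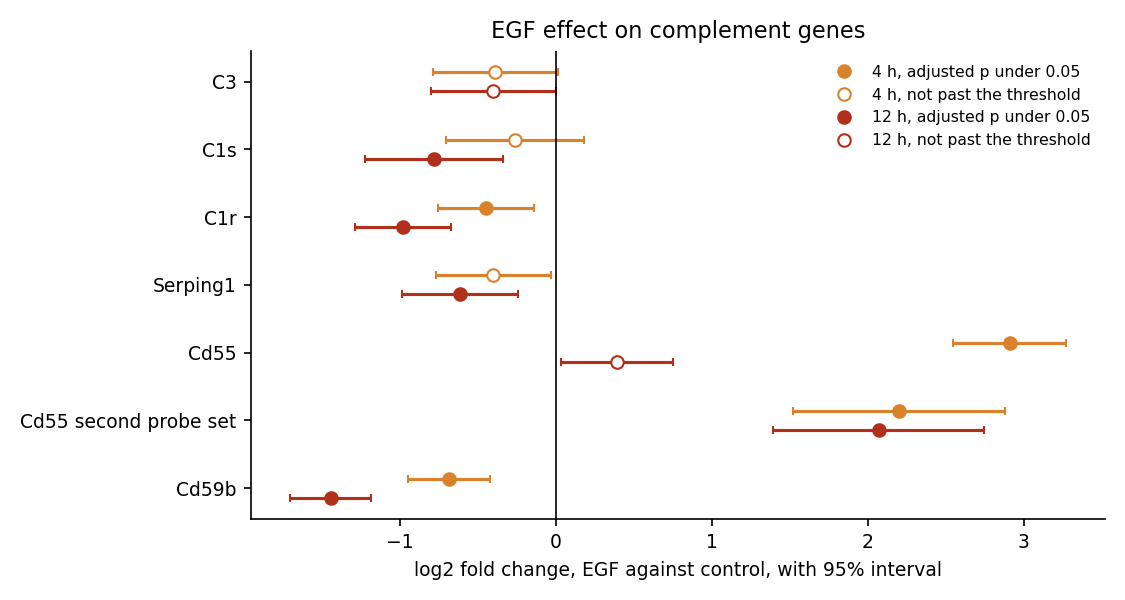
Log2 fold change of EGF against control (horizontal axis) for the 7 probe sets at 4 h and 12 h, with 95% intervals from limma; filled points had an adjusted p under 0.05. The leading Cd55 probe set moved from 2.91 at 4 h to 0.39 at 12 h, and Cd59b from -0.68 to -1.44.

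Tested as a difference between the times, 0 of the 6 genes had a higher effect at 12 h and 2 a lower one, Cd55 and Cd59b, against 5.45% of all probe sets higher and 6.11% lower. The estimate was below 0 for all 6 genes, with a median of -0.53, and the median of all tested probe sets was 0.05. The EGF effects at the 2 times use separate EGF and control arrays and share no samples. Their tests do share a common estimate of the spread, fitted over all 12 arrays. The times also differ in experiment and array set, so a change of effect with time cannot be told apart from either.

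The controls themselves differed between the times in 2 of the 6 genes, both lower at 12 h, against 21.7% of all probe sets lower and 23.8% higher. Serping1 controls were 4.82-fold lower at 12 h, by -2.27 ± 0.17 (adjusted p = 1.32e-06), the largest difference among the leading probe sets. C1r controls were lower by -1.07 ± 0.14 (adjusted p = 0.000115). C1s gave -0.49 ± 0.20 (adjusted p = 0.0682, arrays apart), Cd59b -0.14, Cd55 -0.12 and C3 -0.04. The design lists the 4 h and 12 h cultures as separate experiments. The 4 h controls had actin 3′ to 5′ ratios of 1.20 to 1.61 and the 12 h controls 11.1 to 21.7. Between these controls, time and array set therefore cannot be told apart.

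The order of the group means differed from gene to gene. C1r and Serping1 ran from the 4 h control through EGF at 4 h and the 12 h control to EGF at 12 h, with no overlap between any neighbours. C1s had the same order, but of its neighbours only the 12 h control and EGF at 12 h did not overlap. Cd59b was alike in the controls of both times, which overlapped, then lower with EGF at 4 h and lowest with EGF at 12 h. Cd55 was highest with EGF at 4 h, and its other groups overlapped as neighbours. All neighbouring groups of C3 overlapped.

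**Figure D3:**
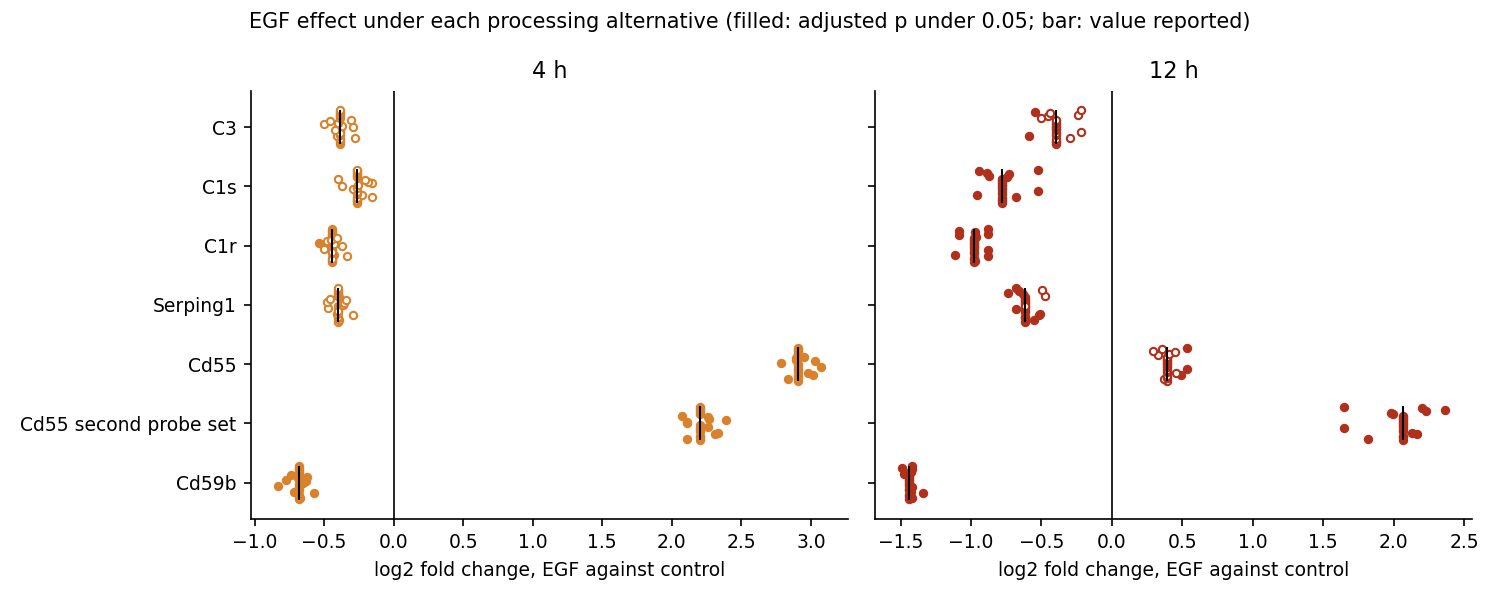
Log2 fold change of EGF against control for each probe set at 4 h (left) and 12 h (right) under each processing alternative (one point each, filled where the adjusted p was under 0.05), with a bar at the value reported. No value passed in the opposite direction; the C1r fall at 4 h ranged from -0.53 to -0.34, with filled and open points, and the Cd59b points are all filled.

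Across the 12 arrays, on log2(signal + 24.4), C1r followed Serping1 (Pearson r = 0.924) and C1s (r = 0.897) most closely, and Cd59b followed C1r (r = 0.803) and C1s (r = 0.793). C3 correlated with Cd59b at 0.656 and with Serping1 at 0.182, and Cd55 with C3 at -0.363. These are descriptions over arrays that share groups and array sets, and no test was made. Among 10255 other genes, those most like C1r were C1qtnf5 (r = 0.984), Plxdc2 (0.984) and Magec2 (0.982). The like genes for Serping1 were Mmp2 (0.991), Isg15 (0.985) and Adamts12 (0.984), and for C1s they were Pdgfrl (0.964), Marchf3 (0.960) and Loxl1 (0.956).

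For Cd59b the most like genes were Selenbp1 (0.987), Bmp3 (0.982) and Faxdc2 (0.976), and for Cd55 Spire1 (0.979), Tgfbr1 (0.978) and LOC100909675 (0.977). C3 had weaker likenesses, to Erbb2 (0.889), Gtpbp10 (0.884) and Ndufc1 (0.876). Once group means were taken out, likeness to C1s stayed high (0.872 to 0.925), as did that to C3 (0.773 to 0.856). For Serping1 it was 0.763 with Isg15, 0.597 with Mmp2 and 0.0686 with Adamts12, for C1r 0.417 to 0.574, for Cd55 0.297 to 0.562 and for Cd59b 0.188 to 0.253.

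Of 55 other genes listed here as complement genes, 40 had a probe set of their own and 14 passed the filter. The remaining 26 were too dim to test, with no array above 387.3. Relatives and binding proteins are on the list too, among them C1ql3, C1qbp and Lrp1, which all passed at 12 h. The counts are therefore not of the cascade alone. The untested genes included all 3 chains of C1q, the recognition part of C1, with highest signals of 305.3 for C1qa, 188.4 for C1qb and 185.5 for C1qc. The receptors C3ar1 (at most 287.4) and C5ar1 (at most 378.3) and the membrane cofactor Cd46 (at most 351.3) were also untested. C2, C4a, C4b, Cfb and C7 share their probe sets with other symbols and are not named. Of the 14, 1 was higher and 1 lower at 4 h, with a median of -0.30, and 1 was higher and 6 lower at 12 h, with a median of -0.33. The count lower at 4 h became 4 without EGF replicate 3 at 12 h, with the array set as a block or with the 4 h arrays fitted alone, 3 under quantile normalization or the stricter filter, 2 without EGF replicate 1 at 12 h, and 0 without EGF replicate 2 at 4 h or after median centring. Over all 10261 tested genes, 1318 were higher and 2011 lower at 4 h (median -0.17), and 1698 and 2485 at 12 h (median -0.09).

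Among recognition and initiation genes, 4 of 13 were tested. Masp1, a serine protease of the lectin route, read 2396.3, 2867 and 2087.2 in 4 h controls and 1313.2, 1591.2 and 1706.6 with EGF. At 12 h it read 7379.7, 5057.4 and 4357.5 in controls and 1523.7, 1486.9 and 1210.7 with EGF. Masp1 fell at both times with no overlap, by -0.66 ± 0.20 (adjusted p = 0.0249) and by -1.94 ± 0.20 (adjusted p = 6.96e-06). The 4 h call was lost after median centring (-0.55, adjusted p = 0.0738) and without any 1 of replicates 1 and 2 of either group (adjusted p from 0.0554 to 0.107).

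Masp2, the lectin-route protease that cleaves C4 and C2, rose at 4 h from 740.9 ± 88.8 to 1163.5 ± 132 (SD, n = 3 each), by 0.64 ± 0.18 (adjusted p = 0.0193). That call was lost without control replicate 3 (0.54, adjusted p = 0.0715) or EGF replicate 1 (0.55, adjusted p = 0.0853), and also without the replicate 3 pair. At 12 h Masp2 gave -0.05 ± 0.18 (adjusted p = 0.845). Colec12, a collectin of the scavenger receptor kind, fell at 12 h from 37508.9 ± 4398 to 12970.9 ± 2939, by -1.55 ± 0.19 (adjusted p = 3.27e-05), and gave -0.52 ± 0.19 at 4 h (adjusted p = 0.0579). C1ql3 shares the C1q domain but is a synaptic protein and not a part of C1. It fell at 12 h by -2.15 ± 0.31 (adjusted p = 0.000132).

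C8g, the gamma chain of the terminal component C8, was 1 of 3 tested genes of the alternative and terminal routes. It read 1545.5, 1202.8 and 1611.1 in 12 h controls and 371.1, 322.9 and 434.1 with EGF. The groups were far apart, and the fall was -1.88 ± 0.26 (adjusted p = 8.03e-05). Of 3 tested regulators, Susd4, a membrane inhibitor of complement, fell at 12 h from 1113 ± 123 to 290.7 ± 165, by -1.99 ± 0.36 (adjusted p = 0.000724). Clu, clusterin, which binds the terminal complex in fluid, gave -0.24 ± 0.16 at 4 h (adjusted p = 0.288) and -0.02 ± 0.16 at 12 h (adjusted p = 0.943). Cr1l, the remaining tested regulator, gave -0.40 ± 0.15 at 4 h (adjusted p = 0.0593, arrays apart). At 12 h it gave 0.007 ± 0.15 (adjusted p = 0.977).

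Of 4 tested receptors and binding proteins, C1qbp, which binds the globular head of C1q and resides largely in mitochondria, rose at 12 h from 13562.9 ± 872 to 21509.3 ± 1985, by 0.66 ± 0.13 (adjusted p = 0.00173). Lrp1, a large endocytic receptor, fell at 12 h by -0.66 ± 0.22 (adjusted p = 0.0282). The Lrp1 call was lost without control replicate 1 or 2 or EGF replicate 1 at 12 h (adjusted p from 0.0688 to 0.0952). It was also lost after median centring and without the intensity trend, and was kept under 17 of 22 alternatives. The EGF effect was lower at 12 h than at 4 h in 4 of the 14 genes, Masp1, Colec12, C8g and Susd4, and higher in 0, where 764 of all 10261 tested genes were lower and 672 higher. The count of 4 was not stable: it ran from 1 (without control replicate 1 or 2 at 4 h or control replicate 3 at 12 h) to 5 (without EGF replicate 1 or 3 at 12 h) when 1 array was left out. It was 2 without EGF replicate 1 or 3 at 4 h or control replicate 1 at 12 h, and Susd4 passed in only 2 of these 12 fits. In the controls 6 of the 14 were higher at 12 h than at 4 h and 1 was lower. Colec12 was higher by 3.27 and Susd4 by 2.05. Of all 10261 tested genes, 2919 were higher and 1705 lower between these controls, where time and array set cannot be told apart.

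**Figure D4:**
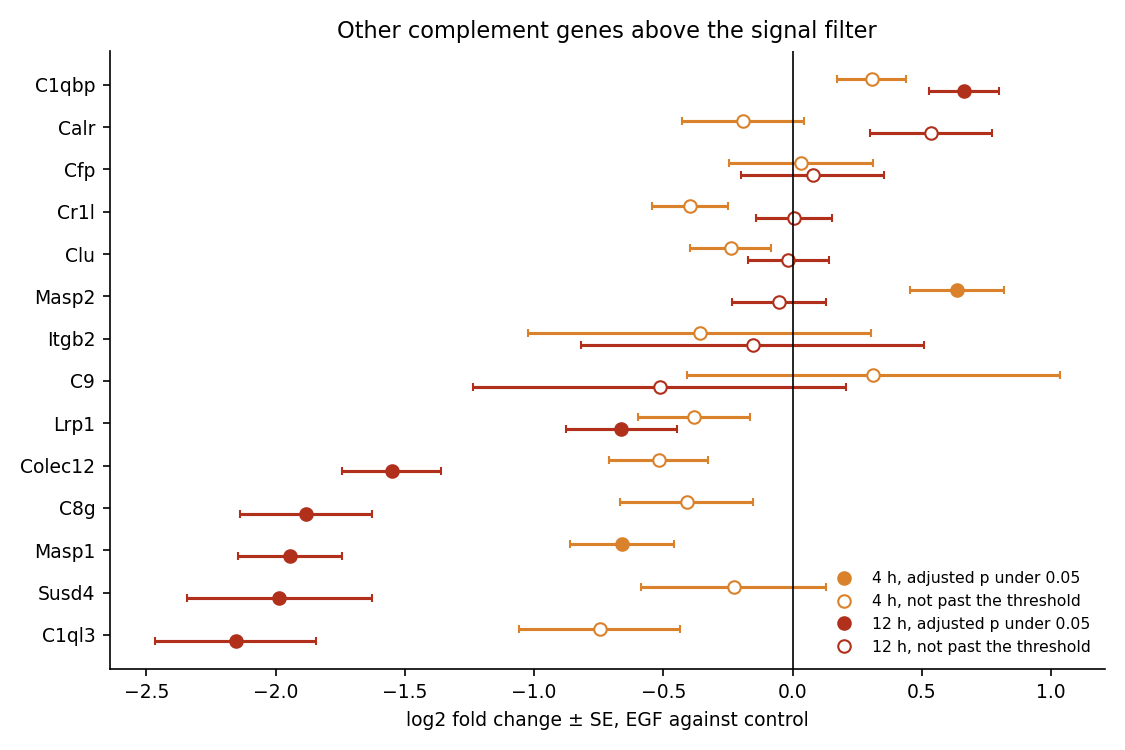
Log2 fold change ± SE of EGF against control (horizontal axis) for the 14 other complement genes that passed the signal filter, at 4 h and 12 h; filled points had an adjusted p under 0.05. At 12 h, C1ql3, Susd4, Masp1, C8g, Colec12 and Lrp1 lie to the left of 0 with filled points, and C1qbp to the right.

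Transcription factors with described sites in complement promoters were read as a list of 16, of which 14 were on the array and 13 tested. At 4 h, 2 were higher and 5 lower (median -0.38), against 1318 and 2011 of all 10261 tested genes. At 12 h 2 were higher and 3 lower (median -0.11), against 1698 and 2485 of all, a share close to that of the list. Irf1, an interferon-response factor, fell at 4 h from 3410.9 ± 507 to 1007.1 ± 127 (SD, n = 3 each), by -1.73 ± 0.17 (adjusted p = 6.89e-06). Irf9, which binds interferon response elements, fell at 4 h by -1.04 ± 0.13 (adjusted p = 6.72e-05) and at 12 h by -0.47 ± 0.13 (adjusted p = 0.0135). Its 12 h call was kept under 19 of 22 alternatives (adjusted p at most 0.0696). Cebpd, a C/EBP factor of the acute phase, fell at 4 h from 10009.3 ± 1156 to 4810.2 ± 1062, by -1.07 ± 0.17 (adjusted p = 0.000424), and Cebpa, another C/EBP factor, rose at both times, by 0.88 ± 0.20 and 0.75 ± 0.20 (adjusted p = 0.00545 and 0.0104). Nfkb1, an NF-kB gene, rose at 4 h by 0.68 ± 0.15 (adjusted p = 0.00368) and gave -0.26 ± 0.15 at 12 h (adjusted p = 0.188). Nr3c1 gave -0.30 ± 0.15 at 4 h (adjusted p = 0.162) and fell at 12 h by -0.79 ± 0.15 (adjusted p = 0.00127). No link between these factors and the complement genes was tested.

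Markers of other cells moved with EGF as well. Of 15 microglia and macrophage markers, 4 of which (Itgam, C1qa, C1qb and C1qc) are also complement genes, 11 were below the filter, Itgam with at most 41.6 and Trem2 with at most 35.4. Their summed signal was 5232.8 to 5676.2 in 4 h controls, 6710.7 to 8052.2 with EGF at 4 h, 3893.7 to 4369.1 in 12 h controls and 6765.3 to 9123.3 with EGF at 12 h. Most of this sum is Cd14, a co-receptor for endotoxin, with mean signals of 3587.2, 5999.3, 2867.2 and 5366.6 in the same order, which rose at both times by 0.74 ± 0.16 and 0.88 ± 0.16 (adjusted p = 0.00392 and 0.000816). The lysosomal protein gene Cd68 read 841.1 to 1054.6 with EGF at 12 h and at most 141.9 on any other array. It passed the filter only through that group, so no fold is given. The other tested markers, Aif1 (-0.41 and -0.05) and Csf1r (0.10 and 0.42), did not pass at 4 h or 12 h. The sum therefore follows 1 or 2 genes and does not describe the class.

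Of 13 fibroblast and meningeal markers 12 passed the filter, and their summed signal was 292301 to 334588, 257257 to 262221, 244057 to 295708 and 131778 to 205186 in the same order of groups. At 4 h 1 was higher and 2 lower (median -0.32), against 1318 and 2011 of all 10261 tested genes (median -0.17). At 12 h 1 was higher and 8 lower (median -0.91), against 1698 and 2485 (median -0.09). The higher gene at both times, Slc47a1, averaged 94.3 and 100.2 in the 4 h and 12 h controls and 600.9 and 1118.9 with EGF. It passed the filter only through its EGF arrays, so no fold is given. The matrix proteoglycan gene Dcn fell at 12 h by -3.03 ± 0.16 (adjusted p = 1.90e-08) and the growth factor receptor gene Pdgfra at both times, by -1.01 ± 0.15 and -1.26 ± 0.15 (adjusted p = 0.000277 and 3.00e-05). These sums were lower with EGF on every array, as were the signals of C1r, Serping1 and Cd59b, and the part of any of these cell type markers in the complement results was not tested. Oligodendrocyte markers (9 on the array, 5 too dim) summed to 23734.9 to 26028.5 and 15211.2 to 17654.1 at 4 h and to 53519.3 to 57416.7 and 5132.2 to 6654.2 at 12 h, control first, with 3 lower at each time. The size of the 12 h difference is that of Cldn11, a tight junction protein gene, with means of 45897.4 and 1146.1 (-5.30 ± 0.12, adjusted p = 2.34e-11), whereas Mbp (-1.24) and Cnp (-0.97) fell less and Mag (0.56) did not pass. All 9 neuron markers were too dim to test, with no array above 532.2. Of 8 endothelial and pericyte markers 5 were too dim, and 1 was lower at each time and 1 higher at 12 h. The oligodendrocyte and endothelial counts stand beside the same numbers over all tested genes as given above. Of the 8 tested astrocyte markers, Nes rose at 4 h and 12 h by 2.37 ± 0.29 and 2.36 ± 0.29 (adjusted p = 4.53e-05 and 3.21e-05), and Glul fell at 12 h by -1.28 ± 0.15 (adjusted p = 2.83e-05). Aldoc read 2234.4 to 2920.7 in 12 h controls, 19.9 to 52.8 with EGF at 12 h and at most 260 at 4 h. It passed the filter only through the 12 h controls, so no fold is given.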

How the data were processed

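The deposited values are intensity on a linear scale for each probe set of 12 Affymetrix 1-colour arrays, which the authors computed with MAS5 (per the submitters' processing notes; version not given). RNA was total RNA labelled with biotin, per the labels. Detection calls were not used here. All columns were mapped to samples by title, and genes were named through the platform annotation.

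Of 31099 probe sets, 57 controls were left out, and 18625 were tested, those whose mean signal reached the 40th percentile (215). Signals were taken as log2(signal + 24.4), 24.4 being the 10th percentile of all signals, which understates changes of dim genes. Arrays were not rescaled, since their trimmed means differed by under 1.1-fold. limma 3.58.1 in R 4.3.3 fitted the means of the 4 groups over all 12 arrays, with an intensity trend and 8 residual degrees of freedom. P-values are two-sided and adjusted by Benjamini-Hochberg, with a threshold of 0.05. The median standard error of a log2 change was 0.23, and precision is limited by the number of arrays. The fit was tested on simulated data.

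The members, lists, motifs and tests were chosen with earlier results of these data known. Genes named are mainly the members, other complement genes past the threshold, the 3 most like genes for each member, and up to 3 genes with the smallest p of any other list. Some list genes are named beyond this rule. They include tested genes that did not pass, such as Clu, Cr1l, Mag, Aif1 and Csf1r, and genes too dim to test. At 4 h, deviations of same-numbered EGF and control arrays correlated at 0.121, 0.150 and 0.376 for replicates 1 to 3. The highest correlation with an array of another number was 0.138, 0.142 and -0.230, so only replicate 3 stood out. That pair also differs from the other arrays by its hybridisation controls. At 12 h the same-numbered values were 0.0826, -0.111 and -0.103, against -0.0207, 0.166 and 0.116. Pairing by replicate number is thus not established. Promoters are RefSeq's on GRCr8. Figures were drawn with matplotlib 3.10.9.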

Additional observations from a re-analysis of the deposited data

Results flagged for a closer look

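The EGF effects at 4 h and 12 h differed for 2 of the 6 complement genes by limma's test of the difference itself. The times are separate experiments on different array sets, so for every difference given here, time cannot be told apart from these. For Cd55 the leading probe set gave a difference of -2.52 (12 h minus 4 h), from a rise that passed at 4 h to a value that did not pass at 12 h, whereas the second probe set gave -0.13 (adjusted p = 0.885). For Cd59b the difference was -0.76, with a fall at both times that was the larger at 12 h.

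Other named genes also had effects that differed between the times. Among complement genes the difference was -1.28 for Masp1, -1.03 for Colec12, -1.47 for C8g and -1.76 for Susd4, all lower at 12 h. With 1 array left out in turn, the difference passed in 12 of 12 fits for Masp1, 7 for Colec12, 8 for C8g and 2 for Susd4. Over all alternatives the highest adjusted p was 0.0559 for Masp1, 0.0707 for Colec12, 0.0544 for C8g and 0.114 for Susd4. Among transcription factors it was 1.28 for Irf1 and 1.29 for Cebpd, which fell at 4 h and did not pass at 12 h. Among markers it was -1.10 for Glul, -2.56 for Dcn and -2.44 for Aldh1a2. The fitted differences of -4.93 for Aldoc and 3.43 for Cd68 have no settled size, since each gene passed the filter through 1 group alone and lay below it in the other groups. Among genes of the astrocyte profile described last it was -1.12 for Fkbp5 and -0.97 for Srgn.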

How the results depend on the processing

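No value of the 6 genes passed the threshold in the opposite direction under any alternative run. Cd55 and Cd59b at 4 h, and C1r, C1s and Cd59b at 12 h, kept their calls under all of them. At 4 h, C1r (-0.45) lost its call with no filter on dim probe sets (-0.45, adjusted p = 0.0566), after median centring (-0.34, 0.167), without the intensity trend (-0.45, 0.0635), with the replicate block (-0.45, 0.0583) and without the replicate 3 pair (-0.50, 0.0635). Leaving out each array in turn gave -0.53 to -0.37. The replicate block changed no other call of the 6 genes. Blocking on the array set, 4960 probe sets were lower at 4 h, against 3068, and C3 (-0.39, adjusted p = 0.0192), C1s (-0.26, 0.0447) and Serping1 (-0.40, 0.0463) passed. This block leaves EGF replicate 3 at 12 h, alone in its set, with no weight. Fitted alone, the 4 h arrays gave C3 at -0.39 (0.0441) and Serping1 at -0.40 (0.0290). At 12 h, C3 passed under quantile normalization (-0.59, 0.0210), and leaving out each array gave -0.54 to -0.22. Serping1 did not pass with the 12 h arrays alone (-0.61, 0.0796), and leaving out each array gave -0.74 to -0.47. Cd55 passed after median centring (0.49, 0.0435), with the array set as a block (0.54, 0.00734) and by its second probe set (2.07, 0.000200), and leaving out each array gave 0.29 to 0.54. The difference between times had 2168 probe sets higher and 1924 lower with the set block, against 1015 and 1138. For C1r that difference passed under quantile normalization (-0.68, 0.0296). Without EGF replicate 3 at 12 h the C1s controls differed between the times (-0.49, 0.00897). The blocks lie within a time, so neither was run for the controls. The causes were not tested.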

Other observations

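Serping1 and C3 belong to a profile described for astrocytes in inflamed tissue, often called A1. Of 13 other genes of that profile 8 were on the array, and all 8 were tested. At 4 h, 1 was higher and 1 lower with EGF (median -0.26), against 1318 and 2011 of all 10261 tested genes. At 12 h 4 were higher and 4 lower (median 0.21), against 1698 and 2485. Fkbp5, a co-chaperone of the glucocorticoid receptor, rose at 4 h from 535.4 ± 37.9 to 3267.9 ± 120 (SD, n = 3 each), by 2.56 ± 0.15 (adjusted p = 5.42e-08 by limma), and at 12 h by 1.44 ± 0.15 (adjusted p = 6.67e-06). Fbln5, an elastic-fibre protein gene, fell at 4 h by -0.62 ± 0.17 (adjusted p = 0.0170) and at 12 h by -1.30 ± 0.17 (adjusted p = 6.98e-05). With 1 array left out in turn, its 4 h call was kept in 8 of 12 fits (adjusted p at most 0.0730). Srgn, a proteoglycan of secretory granules, fell at 12 h by -1.23 ± 0.13 (adjusted p = 8.65e-06). At 12 h Serping1 fell and C3 did not pass.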
